A study of Mus musculus with 12 samples.

Results

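The expression of 8 genes of the primitive endoderm and GATA group was followed in mouse 8-cell embryos after siRNA knockdown (KD) of Nr5a2, Klf5 or both. The group was set by a list of names, not by a rule on measured values, though it was chosen with earlier results of these data known. Its genes were found by symbol: Gata1, Gata4, Gata6, Sox17, Sox7, Pdgfra, Hnf4a and Foxa2, 8 of 55401 genes in the count tables. Of these, 4 were measured at a level that could be tested in every comparison (Gata1, Gata4, Gata6 and Pdgfra), and the other 4 had at most 3 counts in any library. Zygotes from B6129F1 females mated with B6CBAF1 males were microinjected with siRNA against Nr5a2 (5 µM, n = 3 libraries), against Klf5 (10 µM, n = 3), against both (Nr5a2 Klf5 dKD, written dKD, n = 4, combined concentrations not named in the sources used here) or with a control siRNA (15 µM, n = 2). H2B-EGFP was injected along with the siRNA in every group, the control included, and each of the 12 libraries was made from 10 pooled embryos, so that differences between embryos or between cells within a library were averaged. The siRNA was given to the zygote, so that no cell type of the embryo was targeted apart from the others.

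The primitive endoderm is the layer of the inner cell mass that gives rise to the yolk sac, and it is set apart from the epiblast in the blastocyst, after the stage sampled here. Gata6 and Pdgfra are among the earliest of its genes, and Gata4, Sox17 and Sox7 follow as the lineage matures, with Foxa2 and Hnf4a in the later endoderm. FGF signalling through the MAP kinase cascade favours this fate over the epiblast. Gata1 is best known from red blood cell development, where it drives the globin programme. GATA proteins bind the sequence core GATA through paired zinc fingers and can open closed chromatin. NR5A2 is an orphan nuclear receptor and KLF5 a zinc finger factor of the Krüppel-like family.

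The libraries held between 6676683 and 12560926 counts on genes. The targeted mRNAs were lower in the libraries labelled for them. Nr5a2 was at 15.0% of the control mean in Nr5a2 KD and at 14.1% in dKD, and Klf5 was at 24.8% in Klf5 KD and at 12.7% in dKD. Klf5 was also at 31.2% in Nr5a2 KD. The fall of Klf5 in Klf5 KD had an adjusted p of 0.0996 with edgeR's quasi-likelihood test, and no gene of 12838 passed in that comparison. The stage was checked with a list of 7 cleavage-stage genes, among them Dppa3, Tead4 and Cdh1, which were present in every group. The median log2 difference from control of the 6 tested was -0.68 in Nr5a2 KD, against 0.04 over all genes. Tead4 went from 95.9 CPM (the count of a gene scaled to a fixed library total) in control to 47.7 in Nr5a2 KD. There it was called lower (log2 -1.01, adjusted p = 0.0393, edgeR), and in dKD, at 56.5 CPM, it was under 2-fold (log2 -0.77, adjusted p = 0.0426). The Tead4 call was lost under 9 of 17 alternatives, among them ERCC library sizes (log2 -0.31, adjusted p = 0.639) and leaving out control replicate 1 (0.228) or 2 (0.197) or Nr5a2 KD replicate 1 (0.121) or 3 (log2 -0.87, under 2-fold). By contrast, Cdx2, which was on the same list, and the later lineage gene Sox2 had group means of at most 0.607 CPM. Of 12 markers of cumulus and granulosa cells, which surround the oocyte, 3 were at 0 in every library and the sum of the list was 0.699 to 4.89 CPM. The mitochondrial share of counts was 12.9 to 13.2% in control and spread from 4.41 to 12.8% in the other groups, lowest in Klf5 KD replicate 1 and about as low in Nr5a2 KD replicate 3 and dKD replicates 3 and 4. Values below are CPM scaled by TMM, a factor per library that sets most genes at the same level. A change is said to be called where it was 2-fold or more and the p adjusted over all tested genes stayed below 0.05. Embryos of a library were pooled, so fewer cells with a transcript and less of it per cell cannot be told apart.

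Gata6 was the most abundant of the genes per length of transcript and Pdgfra the least of those measured. In control embryos Gata6 was at 21.8 ± 0.396 CPM per kilobase (SD, n = 2), Gata1 at 15.3 ± 1.75, Gata4 at 3.85 ± 1.03 and Pdgfra at 0.60 ± 0.0905. No neighbours in this order overlapped between the control libraries. In Klf5 KD the order was the same, with means per kilobase of 29.1, 13.8, 2.28 and 0.203. In Nr5a2 KD Gata1 stood at 4.92 ± 0.747 CPM per kilobase (n = 3) and Gata4 at 2.75 ± 1.04, still without overlap. In dKD the ranges of these neighbours overlapped, at 3.97 ± 1.47 (n = 4) for Gata1 and 2.81 ± 0.882 for Gata4, and in dKD replicate 4 Gata4 was above Gata1.

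The genes also differed in how closely the libraries of a group agreed. The coefficient of variation of Gata6 was 1.82 to 19.1% in the 4 groups, where counting alone would give 2.49 to 3.25%. For Gata1 it was 11.4 to 37.1%, against 5.78 to 11.5%, highest in dKD. For Gata4 it was 26.8 to 37.9%, against 9.67 to 11.6% from counting. For Pdgfra it was 15.1 to 62.4%, against 9.02 to 23.4%.

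**Figure D1:**
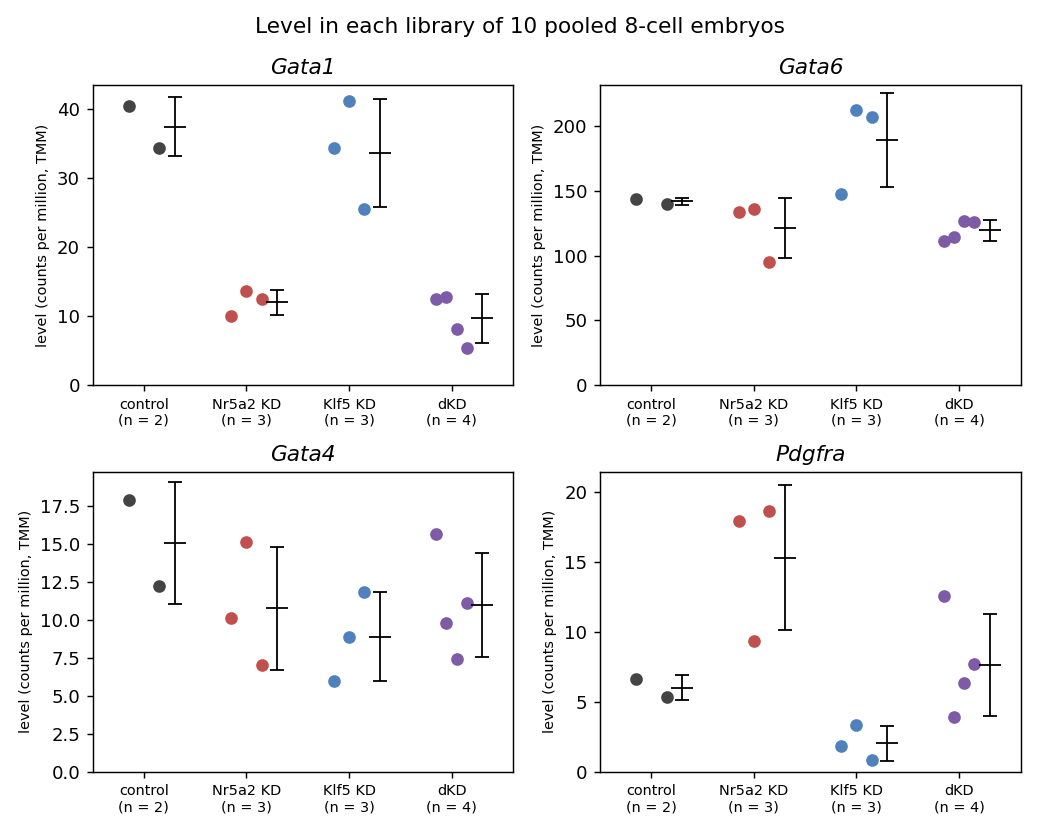
The level of each of the 4 measured genes is plotted in CPM (TMM-scaled, axes from 0) for every library, with points coloured by group and black bars at the mean ± SD. Gata1 in the 7 libraries given Nr5a2 siRNA lies between 5.31 and 13.6 CPM, below the other 5 libraries at 25.5 to 41.1 CPM, and Pdgfra is lowest in the Klf5 KD libraries at 0.854 to 3.38 CPM.

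Gata1 (ENSMUSG00000031162) is a protein-coding gene on the minus strand at chrX:7959260-7978071 (GRCm38), and its exons overlapped no other gene. It was measured at 40.4 and 34.4 CPM in control (273 and 262 counts). In the Nr5a2 KD libraries it was at 10.0, 13.6 and 12.4 CPM. The Klf5 KD libraries had 34.3, 41.1 and 25.5 CPM, and the dKD libraries had 12.5, 12.8, 8.15 and 5.31 CPM. Every library with Nr5a2 siRNA was below every library without it, and the Klf5 KD libraries lay around the control ones.

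Gata1 fell to 32.1% of the control mean in Nr5a2 KD, with a log2 fold change of -1.64 ± 0.269 (SE) and an adjusted p of 0.0037 (edgeR). In dKD it fell to 25.9%, with a log2 fold change of -1.96 ± 0.335 and an adjusted p of 0.0066. The value in Klf5 KD was 90.0% of control, a log2 difference of -0.18 (95% interval from -0.82 to 0.47, adjusted p = 0.906) that was 0.52 with library sizes from the ERCC spike-ins. Gata1 was 2.77-fold higher in Klf5 KD than in Nr5a2 KD (adjusted p = 0.0056, edgeR) and 3.47-fold lower in dKD than in Klf5 KD (adjusted p = 0.0039). Single control libraries bore on the calls against control. Leaving out control replicate 1 gave -1.53 for Nr5a2 KD (adjusted p = 0.0556) and -1.84 for dKD (0.0741), and leaving out control replicate 2 gave -2.06 for dKD (0.0503) and -1.75 for Nr5a2 KD, which was still called (0.0299), as it was without any 1 of the Nr5a2 KD libraries. With the ERCC library sizes, which moved the median of all genes in Nr5a2 KD from 0.0439 to 0.816, Gata1 was at -0.87 (adjusted p = 0.207). The contrast of Klf5 KD with Nr5a2 KD was then 1.40 with an adjusted p of 0.123.

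The promoter of Gata1 is shown because it is the measured gene with the clearest fall. RefSeq's table for GRCm38.p6 holds 250 bases before to 50 after each annotated start, and 4 of the 8 genes have an entry, namely Gata1, Pdgfra, Foxa2 and Hnf4a. The window for Gata1 is chrX:7967861-7968160 on the minus strand, inside the longer gene span of the count tables. Capitals mark matches to CACCC, the core of Krüppel-like factor sites, searched on both strands:
Gata1: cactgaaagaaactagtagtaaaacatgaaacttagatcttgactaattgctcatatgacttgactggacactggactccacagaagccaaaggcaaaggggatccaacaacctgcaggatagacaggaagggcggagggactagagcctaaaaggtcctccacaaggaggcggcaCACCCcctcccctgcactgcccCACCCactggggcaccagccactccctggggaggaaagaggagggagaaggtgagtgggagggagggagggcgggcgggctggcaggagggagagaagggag
The window held 2 matches to CACCC and none to AAGGNCA, the core of the NR5A2 site, or to GATAA. Of 32851 promoter windows, 57.5% held CACCC, 20.3% held AAGGNCA and 25.4% held GATAA on either strand. A search for exact matches in 300 bases cannot tell whether a factor binds there or nearby. From other assays, the paper reports NR5A2 binding at the promoter of Gata1, with less of the histone mark H3K27ac there after Nr5a2 KD.

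Within each library the GATA family could also be read as a make-up, which needs no scaling between libraries. Gata6, Gata1, Gata4 and Gata3 made up nearly all of it per length, while Gata5 was at 0 in every library and Gata2 was at most 0.172% of the sum. Gata3 is a trophectoderm regulator. Gata1 was 37.8 and 34.9% of the summed level in control. It was 13.9, 17.1 and 21.3% in Nr5a2 KD and 35.4, 31.8 and 21.8% in Klf5 KD. In dKD it was 18.1, 17.8, 12.8 and 8.35%. All 7 libraries with Nr5a2 siRNA were below the 5 without it, although Nr5a2 KD replicate 3 and Klf5 KD replicate 3 stood close together.

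The ratio of Gata1 to Gata6 per length was 0.703 ± 0.0679 in control (n = 2), 0.272 ± 0.0746 in Nr5a2 KD (n = 3), 0.488 ± 0.148 in Klf5 KD (n = 3) and 0.220 ± 0.0935 in dKD (n = 4). Klf5 KD replicate 3, at 0.328, lay within the range of Nr5a2 KD. The ratio was chosen after the levels had been seen, and of its 6 two-sided exact permutation tests the lowest p was 0.0571, for dKD against Klf5 KD, the smallest that 4 against 3 libraries allow.

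**Figure D2:**
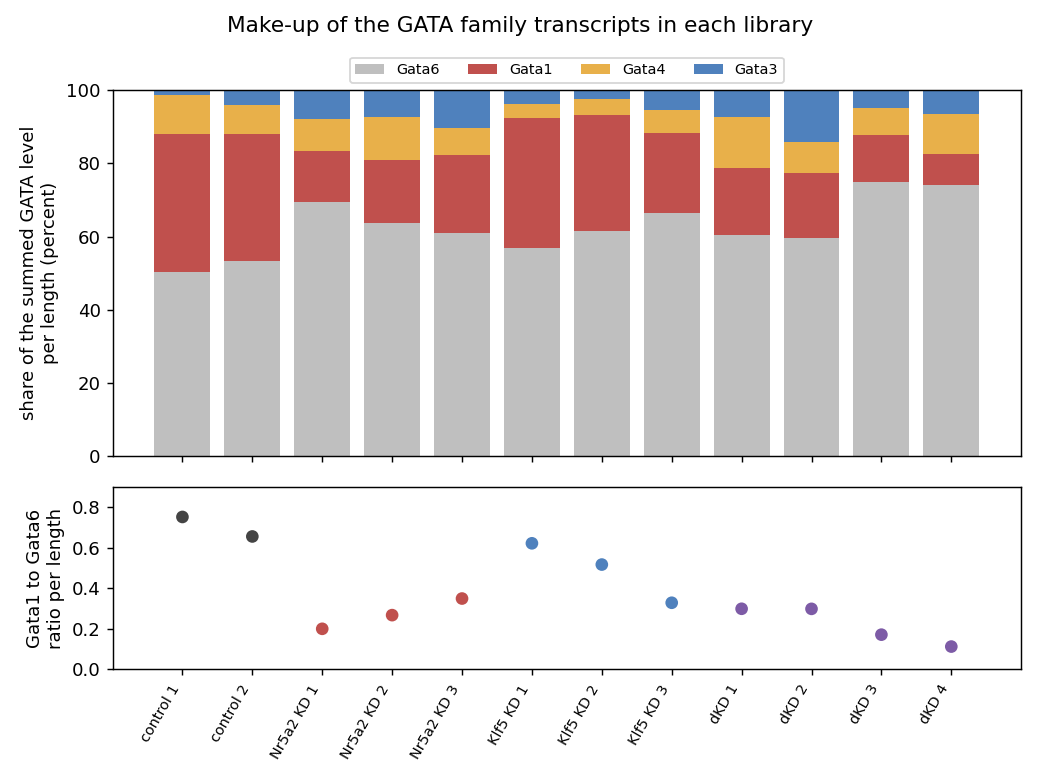
Bars in the upper panel give the percent of the summed GATA level per length from Gata6, Gata1, Gata4 and Gata3 in each library, and points in the lower panel give the Gata1 to Gata6 ratio per length on an axis from 0. The Gata1 share is 34.9 to 37.8% in the control libraries and 8.35 to 21.3% in the 7 libraries given Nr5a2 siRNA.

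Because Gata1 is X-linked and the labels give no sex for the pooled embryos, genes of the sex chromosomes were set beside it. Over 457 other X-linked genes tested in Nr5a2 KD the median log2 fold change was 0.00627, against 0.0439 over all genes, and 18 of them were as low as Gata1 or lower. In dKD the X-linked median was -0.0893 over 467 genes, against 0.0547, with 12 at or below Gata1. The control libraries summed to 32 and 45.6 CPM over 4 Y-linked genes, none of them at 0, where Nr5a2 KD spanned 60.7 to 78.0 CPM, Klf5 KD 22.3 to 89.8 CPM and dKD 80.7 to 124 CPM. Of these genes Eif2s3y was called higher against control in Nr5a2 KD (log2 1.60, adjusted p = 0.0058, edgeR) and dKD (log2 2.06, 0.0040). Either call was lost with 1 control library fewer, at adjusted p of 0.0544 and 0.0514 without replicate 1 and of 0.0977 and 0.0752 without replicate 2. The other 3 were not called, and in Nr5a2 KD, where the mean of Eif2s3y was 41.8 CPM against 13.8 CPM in control, their log2 differences were 0.31 for Ddx3y, -0.35 for Kdm5d and -0.12 for Uty. The highest Y-linked sum of Klf5 KD, 89.8 CPM, was in replicate 3, which had the lowest Gata1 of that group (25.5 CPM). The part of the sex of the embryos in the Gata1 values was not tested. The dKD libraries with the lowest Gata1, replicates 3 and 4, were also those with a low mitochondrial share. With that share as a covariate Gata1 was still called in Nr5a2 KD (log2 -1.60, adjusted p = 0.0184, edgeR) and dKD (log2 -1.5, 0.0107).

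Blood cell markers were read because Gata1 is best known from that tissue. Their sum was 4.2 and 12.6 CPM in control and lay between 6.06 and 31.0 CPM elsewhere. Of 9 such markers, Hbb-bs, Hbb-bt and Ptprc were at 0 in all 12 libraries. Hba-a1, an alpha globin with a near-identical copy, was at 4.83 CPM in control and 19.7 in dKD, where it was called higher (log2 2.02, adjusted p = 0.0275, edgeR). Without control replicate 1 the adjusted p of Hba-a1 was 0.085, and without control replicate 2 it was 0.254. Of the 3 blood markers tested in dKD, where 3.38% of all genes were called higher, Gfi1b and Klf1 were at log2 differences of -0.49 (adjusted p = 0.849) and -0.03 (adjusted p = 0.991).

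Gata6 (ENSMUSG00000005836, protein coding) lies on the plus strand at 11052064 to 11085635 of chromosome 18 (GRCm38) and is required for the primitive endoderm. A neighbouring gene, 1010001N08Rik, overlaps its exons, so in 5 of 12 libraries its value was not whole. Gata6 was at 144 and 140 CPM in control. It was at 134, 136 and 94.8 CPM in Nr5a2 KD and at 148, 213 and 207 CPM in Klf5 KD. The dKD libraries had 111, 114, 127 and 126 CPM. All Nr5a2 KD and dKD libraries were below the control libraries and all Klf5 KD libraries above them.

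These differences were small and none was called. The log2 difference of Gata6 from control was -0.23 in Nr5a2 KD (adjusted p = 0.609, edgeR), -0.25 in dKD (adjusted p = 0.451) and 0.39 in Klf5 KD (adjusted p = 0.707), and the 2 negative values turned positive with library sizes from ERCC counts. As ratios to control the 95% intervals ran from 0.601 to 1.21 in Nr5a2 KD, from 0.629 to 1.12 in dKD and from 0.870 to 1.98 in Klf5 KD, so that a 2-fold change lay outside each of them under TMM scaling. With ERCC library sizes the log2 difference in Klf5 KD was 1.03 (adjusted p = 0.222), above 2-fold and not called. Gata6 in dKD was 0.632 of the Klf5 KD mean, with no overlap between the libraries, a log2 difference of -0.68 ± 0.218 and an adjusted p of 0.0601. The same contrast between single knockdowns gave a log2 difference of 0.63 for Klf5 KD against Nr5a2 KD (adjusted p = 0.160).

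Gata4 (ENSMUSG00000021944), which follows Gata6 in the primitive endoderm and later acts in heart and gonad, is protein coding at chr14:63198922-63271692 on the minus strand. It was at 17.9 and 12.2 CPM in control. It was at 10.1, 15.1 and 7.02 CPM in Nr5a2 KD, at 5.98, 8.85 and 11.8 CPM in Klf5 KD and at 15.6, 9.81, 7.42 and 11.1 CPM in dKD. The groups overlapped, apart from Klf5 KD and control. No difference of Gata4 was called, with log2 values against control of -0.49 in Nr5a2 KD (adjusted p = 0.477, edgeR), -0.79 in Klf5 KD (0.598) and -0.46 in dKD (0.450). With ERCC library sizes the values in Nr5a2 KD and dKD were above 0. The 95% intervals of the ratio to control reached down to 0.407, 0.325 and 0.433, so that a 2-fold lower Gata4 level lay inside all of them.

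Sox17, Sox7, Hnf4a and Foxa2 were not detectable as expressed at this depth. Hnf4a (chr2:163506808-163572910, plus strand) and Foxa2 (chr2:148042877-148046969, minus strand) had 0 counts in all 12 libraries, which over 96748346 counts allows a level of up to 0.0310 CPM. Sox17 (chr1:4490931-4497354, minus strand), an endoderm factor of the SoxF group, had 0 counts in the 8 libraries of the other groups and 1, 0, 2 and 2 counts in dKD. Sox7 (chr14:63943673-63950732, plus strand), also SoxF, had 1 count in Nr5a2 KD replicate 3 and 0 elsewhere. In a single library 3 counts correspond to 0.239 to 0.449 CPM, so the Sox17 and Sox7 values were under this limit in each. These limits cover counting error only, and reads without molecular identifiers are not independent molecules.

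Relatives of these factors showed whether a family was silent as a whole. Foxa1, a pioneer factor close to Foxa2, was at 88.8 and 88.4 CPM in control and at 31.7, 42.4 and 25.5 CPM in Nr5a2 KD. It was at 34.2, 73.9 and 85.4 CPM in Klf5 KD and at 54.9, 40.3, 23.8 and 27.0 CPM in dKD. Foxa1 fell in Nr5a2 KD (log2 -1.42, adjusted p = 0.0060, edgeR) and in dKD (log2 -1.28, adjusted p = 0.0254), while Klf5 KD replicate 1 alone in its group stood near the knockdowns of Nr5a2. These calls rested on the number of controls, since leaving out control replicate 1 gave adjusted p of 0.0564 for Nr5a2 KD and 0.157 for dKD, and leaving out replicate 2 gave 0.0546 and 0.166. Without dKD replicate 4 the adjusted p in dKD was 0.0639, and with ERCC library sizes the log2 values were -0.71 and -0.56 and neither was called. In dKD Foxa1 was also under 2-fold with the mitochondrial share as a covariate (log2 -0.85) and with the replicate block (log2 -0.91). The lowest Foxa1 library of each knockdown group was low in mitochondrial share, and the part of that share was otherwise not tested. Foxa3 and Sox18 had group means of at most 0.379 and 1.06 CPM, and Hnf4g was at 0 in every library.

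Pdgfra (ENSMUSG00000029231), the receptor for PDGF-A whose signal supports survival of primitive endoderm cells, is protein coding at chr5:75152292-75198215 on the plus strand. Exons of 3 other annotated genes overlap it, and its value was not whole in 2 libraries. It was at 6.66 and 5.38 CPM in control, or 45 and 41 counts. It was at 17.9, 9.38 and 18.6 CPM in Nr5a2 KD and at 1.87, 3.38 and 0.854 CPM in Klf5 KD, the lowest from 6 counts. The dKD libraries had 12.6, 3.92, 6.32 and 7.72 CPM. Nr5a2 KD lay wholly above control and Klf5 KD wholly below it, and dKD overlapped with control.

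The contrast between the single knockdowns was the largest of any for the 4 genes. Pdgfra was 7.49-fold lower in Klf5 KD than in Nr5a2 KD (log2 -2.91 ± 0.481, 95% interval from -3.94 to -1.87, adjusted p = 0.0018, edgeR). Leaving out each library in turn gave log2 values from -3.43 to -2.57 with adjusted p from 0.0030 to 0.0104. It was 3.70-fold higher in dKD than in Klf5 KD (log2 1.89 ± 0.522, adjusted p = 0.0305), a call that was lost without Klf5 KD replicate 1 (adjusted p = 0.0954), Klf5 KD replicate 3 (0.0850), dKD replicate 1 (0.0815) or dKD replicate 4 (0.0588). It was lost as well with the replicate block (log2 1.93, adjusted p = 0.122) and with ERCC library sizes (log2 1.96, adjusted p = 0.0593). Against control neither single knockdown passed. The log2 difference was 1.35 ± 0.390 in Nr5a2 KD (adjusted p = 0.0518), with a ratio to control of 2.54 and a 95% interval from 1.41 to 4.58, and without Nr5a2 KD replicate 2 it was 1.60 (adjusted p = 0.0239). DESeq2 gave 1.34 with an adjusted p of 0.0263. Over all the alternative settings, in edgeR or DESeq2, the log2 value ran from 0.87 to 2.19 and the adjusted p from 0.0169 to 0.276. With 1 library left out at a time the log2 value ran from 1.195 to 1.60. In Klf5 KD the log2 difference was -1.57 ± 0.569 (95% interval from -2.80 to -0.34, adjusted p = 0.537 in edgeR), and in dKD it was 0.34 (adjusted p = 0.704). Over the alternative settings these values ran from -2.105 to -0.83 in Klf5 KD and from 0.27 to 1.13 in dKD, on both sides of 2-fold.

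The promoter of Pdgfra is shown beside that of Gata1 because it was the gene with the widest range between the knockdowns. RefSeq's window for GRCm38.p6 is chr5:75152001-75152300 on the plus strand, and capitals again mark CACCC:
Pdgfra: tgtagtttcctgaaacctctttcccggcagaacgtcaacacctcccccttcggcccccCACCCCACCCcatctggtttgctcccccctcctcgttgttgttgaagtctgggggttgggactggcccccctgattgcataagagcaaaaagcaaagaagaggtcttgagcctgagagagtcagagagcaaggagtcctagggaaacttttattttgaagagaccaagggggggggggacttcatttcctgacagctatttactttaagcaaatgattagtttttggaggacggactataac
It held 2 adjoining matches to CACCC, and none to AAGGNCA or GATAA.

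The ligand Pdgfa was measured at 8.73 and 7.47 CPM in control, at 5.01, 6.53 and 4.34 CPM in Nr5a2 KD and at 11.2, 12.0 and 14.7 CPM in Klf5 KD. In dKD it was at 6.67, 1.96, 1.46 and 4.46 CPM. Pdgfa was thus higher in Klf5 KD than in Nr5a2 KD (log2 1.24, adjusted p = 0.0344, edgeR) and lower in dKD than in Klf5 KD (log2 -1.79, adjusted p = 0.0216), opposite in sign to its receptor in both comparisons. Without Klf5 KD replicate 2 the adjusted p was 0.0777 and 0.0610, and without Klf5 KD replicate 3 it was 0.0942 and 0.0532. The call against Nr5a2 KD was also lost without Nr5a2 KD replicate 1 (0.111), replicate 2 (0.0539) or replicate 3 (0.0954), and that against dKD without dKD replicate 2 (0.0557). Neither call of Pdgfa stood with the replicate block (0.0586 and 0.0667) or ERCC library sizes (0.234 and 0.0621), and the call against Nr5a2 KD was lost with total counts (0.0673) or all 12 libraries in 1 fit (0.0762). The other receptor, Pdgfrb, was at most at a group mean of 0.0907 CPM, Pdgfb was at most at 0.512 CPM, and Pdgfc was at 0.

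**Figure D3:**
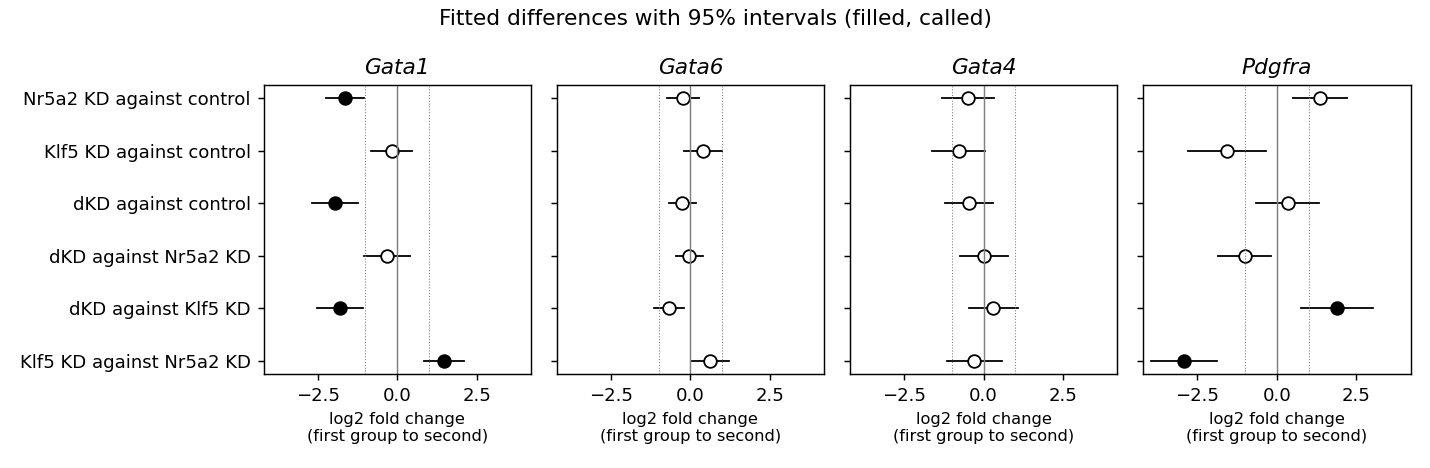
Fitted log2 fold changes of the first group to the second are plotted for the 4 measured genes in 6 comparisons, with lines for 95% intervals, filled points for calls and dotted lines at a 2-fold change. Gata1 is called lower in Nr5a2 KD and dKD against control, at -1.64 and -1.96, Pdgfra is called at -2.91 for Klf5 KD against Nr5a2 KD, and no point of Gata4 or Gata6 is filled.

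Counted over the 8 genes, with 4 tested in each comparison, Gata1 was the gene called lower in Nr5a2 KD and none was called higher, where 4.42% of all 13262 genes tested were called lower and 3.45% higher. In dKD against control the count was the same, and 3.85% of 13724 genes were called lower and 3.38% higher. These comparisons share the 2 control libraries. In Klf5 KD against control none of the 4 was called, and of all 12838 genes 0% were called lower and 0% higher with edgeR, although 8.47% had an unadjusted p under 0.05 and DESeq2 called 42 lower and 8 higher. In dKD against Klf5 KD Gata1 was called lower and Pdgfra higher, with 5.41% of 12904 genes called lower and 5.38% higher. In Klf5 KD against Nr5a2 KD Pdgfra was called lower and Gata1 higher, with 5.6% and 5.83% of 12668 genes. With 4 genes tested, these counts say little about the group as a group.

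Adding the Klf5 siRNA to the Nr5a2 siRNA gave no call among these genes. In dKD against Nr5a2 KD the log2 differences were -0.32 for Gata1 (95% interval from -1.05 to 0.40), 0.02 for Gata4 (from -0.73 to 0.76) and -0.04 for Gata6 (from -0.46 to 0.39). For Pdgfra it was -1.01 (from -1.85 to -0.18) with an adjusted p of 0.999 in edgeR, and 1 dKD library, replicate 1, lay within the range of Nr5a2 KD. Over all 13017 genes 0% were called lower and 0% higher with edgeR, 3.43% had an unadjusted p under 0.05, and DESeq2 called 4 lower and 0 higher. The interaction of the knockdowns, the departure of dKD from the sum of the single log2 changes, was -0.14 ± 0.458 for Gata1, 0.80 ± 0.546 for Gata4, -0.43 ± 0.322 for Gata6 and 0.56 ± 0.678 for Pdgfra. None passed, with adjusted p of at least 0.950 in edgeR. Over 14830 genes the interaction was called for 0%, with 4.82% at an unadjusted p under 0.05 and 3 genes called by DESeq2.

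The levels were also compared by exact permutation of the libraries, in 24 two-sided tests. The group sizes allow no p below 0.2 for 2 against 3 libraries, 0.133 for 2 against 4, 0.1 for 3 against 3 and 0.0571 for 3 against 4, so that no such test could pass 0.05. Set side by side by siRNA, a grouping chosen after the values were seen and therefore given without a test, Gata1 was 10.7 ± 3.02 CPM in the 7 libraries with Nr5a2 siRNA and 35.1 ± 6.28 CPM in the other 5. Pdgfra was 10.9 ± 5.69 and 3.63 ± 2.40 CPM, pooling Nr5a2 KD at 15.3 with dKD at 7.64 CPM, and control at 6.02 with Klf5 KD at 2.03 CPM. Gata4 was 10.9 ± 3.39 and 11.4 ± 4.44 CPM, where the second value pools control at 15.05 with Klf5 KD at 8.89 CPM. Gata6 was 120 ± 14.5 and 170 ± 36.4 CPM, where the second value pools control at 142 CPM with Klf5 KD at 189 CPM.

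Of 12 relatives and cofactors listed, 5 were tested in most comparisons and 6 in dKD against control, and none was called in any of the 6 comparisons. Of all genes, the share called against control was 4.42% for lower and 3.45% for higher values in Nr5a2 KD, with 3.85% and 3.38% for dKD, so that a count of 0 among so few is near the background. The median log2 difference of those tested was -0.12 in Nr5a2 KD and 0.01 in dKD, against 0.04 and 0.05 over all genes. Gatad2a and Gatad2b, subunits of the NuRD complex, were at 37.4 and 31.7 CPM in control. Gatad1, a zinc finger protein of lower level, was at 4.62 ± 0.788 CPM in control (n = 2), 2.34 ± 1.89 CPM in Nr5a2 KD (n = 3, log2 -0.97, adjusted p = 0.452, edgeR) and 1.90 ± 1.32 CPM in dKD (n = 4, log2 -1.27, adjusted p = 0.236). Ldb1, an adaptor that bridges GATA1 complexes, was at 21.6 CPM in control and 16.1 CPM in Nr5a2 KD (adjusted p = 0.377, edgeR). Zfpm1, the cofactor known as FOG1, was at most at 0.60 CPM as a group mean, and Tal1, the partner of GATA1 in blood, was at 0. Gata3 was at 2.37 and 6.69 CPM in control and at 9.32, 9.52 and 9.70 CPM in Nr5a2 KD, with an adjusted p of 0.185 in edgeR.

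The FGF input to primitive endoderm was read from 10 genes, all tested. In Nr5a2 KD 1 was called lower and 1 higher, in dKD against control likewise, and in Klf5 KD none, beside 4.42% lower and 3.45% higher of all genes in Nr5a2 KD and 3.85% and 3.38% in dKD. Sos1, the exchange factor that activates RAS, fell from 170 and 139 CPM in control to 48.5, 41.1 and 34.0 CPM in Nr5a2 KD (log2 -1.91, adjusted p = 8.4e-04, edgeR) and to 64.5, 66.7, 47.2 and 50.9 CPM in dKD (log2 -1.44, adjusted p = 0.0040). Without control replicate 1 the adjusted p of Sos1 in dKD was 0.0721. With ERCC library sizes neither call of Sos1 stood (log2 -1.18 and -0.69). Dusp6, a MAP kinase phosphatase that is itself induced by FGF signalling, was at 3.85 and 2.49 CPM in control and rose to 33.2, 42.3 and 27.1 CPM in Nr5a2 KD (log2 3.43, adjusted p = 4.4e-04). It was at 15.1, 51.8, 17.6 and 35.3 CPM in dKD (log2 3.23, adjusted p = 0.0068), a call lost without control replicate 1 (0.0633) or control replicate 2 (0.0974). In Klf5 KD Dusp6 had 0, 0 and 1 counts, against 26 and 19 in control, and was not called (log2 -5.89, adjusted p = 0.142, edgeR). It was called lower in Klf5 KD than in Nr5a2 KD (log2 -9.35, adjusted p = 3.5e-06), under all 18 alternatives. Dusp6 was called higher in dKD than in Klf5 KD (log2 9.14, adjusted p = 6.5e-05), under all 19. At such counts the size of these log2 values depends on the prior count.

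The ligand and receptors of that pathway gave no call against control. Fgf4, the ligand, was at 9.95 CPM in control and 9.90 CPM in Nr5a2 KD. Fgfr2 was at 50.3 and 38.8 CPM and Fgfr1 at 9.07 and 6.14 CPM in those groups, with adjusted p of 0.399 and 0.414 in edgeR. The kinase Map2k1 was at 63.8 CPM in control and 36.3 CPM in Nr5a2 KD, a log2 difference of -0.81 that was under 2-fold (adjusted p = 0.04997, edgeR), and the adaptor Grb2 was at 93.8 and 61.9 CPM (log2 -0.60, adjusted p = 0.124). The median log2 difference of the 10 genes was -0.47 in Nr5a2 KD, -0.10 in Klf5 KD and -0.36 in dKD, against 0.04, 0.0046 and 0.05 over all genes.

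Of 22 genes of the later primitive endoderm, 13 could be tested in Nr5a2 KD, 10 in Klf5 KD and 14 in dKD, since the remainder had too few counts. Against control none was called lower, 4 were called higher in Nr5a2 KD, 0 in Klf5 KD and 2 in dKD, where 3.45%, 0% and 3.38% of all genes tested were called higher. All of these were low in control, which bears on the count because a gene near the filter can be tested only where some group lifts it. Apoe, a lipoprotein component of the yolk sac endoderm, rose from 5.92 and 3.41 CPM in control to 14.7, 18.1 and 46.1 CPM in Nr5a2 KD (log2 2.50, adjusted p = 0.0126, edgeR) and to 19.0, 19.1, 32.2 and 21.6 CPM in dKD (log2 2.30, adjusted p = 0.0056). Without control replicate 1 the adjusted p of Apoe in Nr5a2 KD was 0.0533, and without control replicate 2 it was 0.121 there and 0.0847 in dKD. With the mitochondrial share as a covariate the log2 value in Nr5a2 KD was 1.56 (adjusted p = 0.063), and the library with the most Apoe, Nr5a2 KD replicate 3, was low in that share. Apoa1, another apolipoprotein, was at 0.740 and 1.57 CPM in control, from 5 and 12 counts, and rose to 10.6, 5.98 and 12.8 CPM in Nr5a2 KD (log2 3.04, adjusted p = 0.0067, or 0.0700 without control replicate 1).

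The remaining calls among the later genes were nearer to the limit of detection. Lamb1, a laminin chain of the basement membrane, had 12 and 18 counts in control and was called higher in Nr5a2 KD (log2 1.82, adjusted p = 0.0305, edgeR). With the mitochondrial covariate its log2 value was 1.86. Its call was lost without control replicate 1 (0.210) or 2 (0.127) and without Nr5a2 KD replicate 1 (0.0791) or 2 (0.0604), and with the mitochondrial covariate (0.0737). Srgn, a proteoglycan of secretory granules, had 7 and 10 counts in control (log2 2.14 in Nr5a2 KD, adjusted p = 0.0343, and log2 2.17 with the mitochondrial covariate). That call was lost when control replicate 1 (0.201) or 2 (0.146) was left out, as it was for Nr5a2 KD replicate 1 (0.0599) or 2 (0.0739), and with the replicate block (0.0615) or the mitochondrial covariate (0.0821). Lrp2, the endocytic receptor megalin, had 18 and 10 counts in control (log2 1.90 in dKD, adjusted p = 0.0399), and was not called without control replicate 1 (0.108), control replicate 2 (0.296) or dKD replicates 1 (0.0613), 3 (0.0721) or 4 (0.0624). The mean of Lrp2 was 7.42 CPM in dKD and higher in Klf5 KD, at 10.4 CPM, where the log2 difference from control was 2.37 and was not called (adjusted p = 0.228), and in Nr5a2 KD it was 5.49 CPM (log2 1.47, adjusted p = 0.115).

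The abundant genes of the same list did not rise in Nr5a2 KD or dKD. Cited1, a transcriptional co-regulator, was at 757 ± 39.6 CPM in control (n = 2) and 509 ± 79.8 CPM in Nr5a2 KD (n = 3), a difference with an adjusted p of 0.127 in edgeR. It was at 1084 CPM in Klf5 KD and 434 CPM in dKD, where the log2 difference of -0.81 from control was under 2-fold (adjusted p = 0.0499). Dab2, an endocytic adaptor whose loss disorganizes the primitive endoderm, was at 25.0, 19.3, 44.8 and 18.6 CPM as group means in that order. Both were called lower in dKD than in Klf5 KD, at log2 -1.31 (adjusted p = 0.0042) for Cited1 and -1.26 (adjusted p = 0.0096) for Dab2, and leaving out any library of that comparison lost neither, whereas ERCC library sizes lost both (adjusted p of 0.0521 and 0.0929) and the replicate block lost Dab2 (0.0639). Nid1, which links laminin and collagen in the basement membrane, was at 40.5, 33.5, 19.5 and 22.0 CPM in the same order of groups and was not called against control, with log2 differences of -1.08 in Klf5 KD (adjusted p = 0.343) and -0.89 in dKD (adjusted p = 0.0475, under 2-fold). The 22 genes, most of the sum being Cited1, came to 811 and 875 CPM in the control libraries, where Nr5a2 KD spanned 577 to 670 CPM, Klf5 KD 920 to 1530 CPM and dKD 443 to 678 CPM. Ttr was at 0 in all libraries, and Col4a1 and Sparc, major basement membrane genes of the differentiated endoderm, had group means of at most 1.26 and 0.698 CPM.

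**Figure D4:**
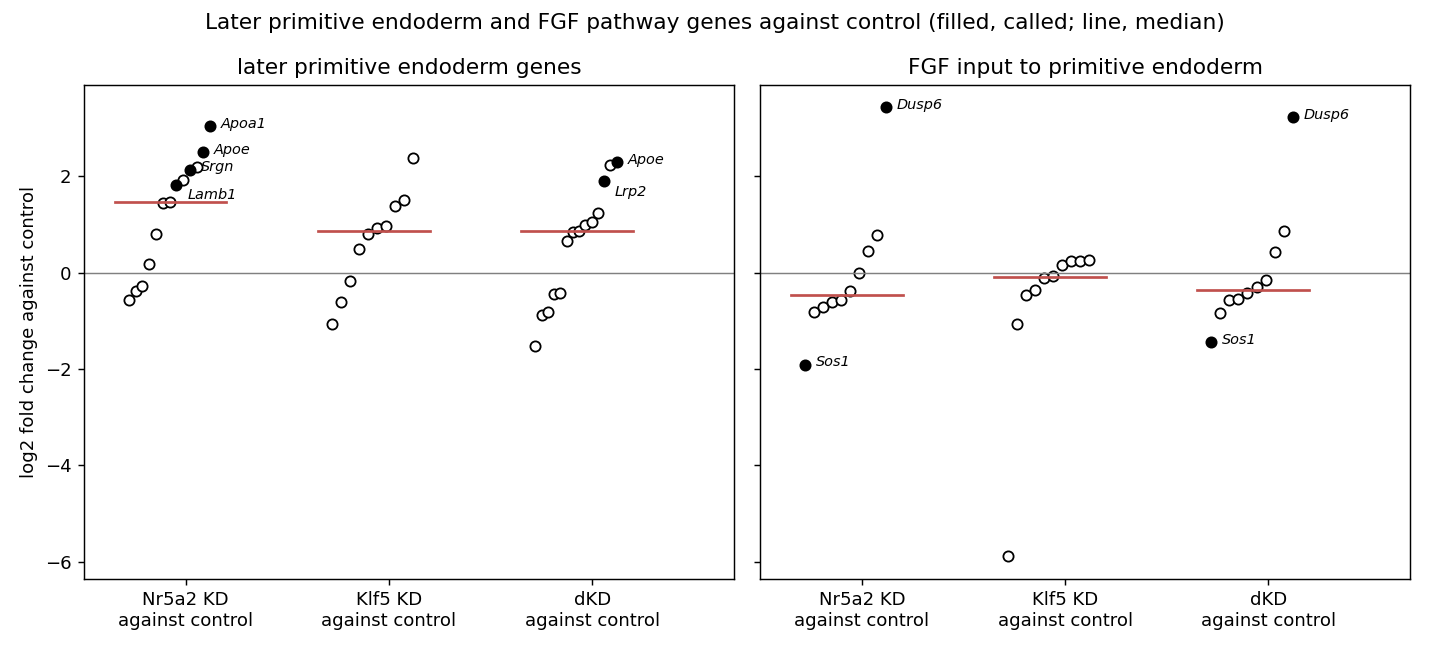
Log2 fold changes against control are plotted for the tested genes of the later primitive endoderm and for the 10 FGF pathway genes, with filled points and names for calls and a red line at the median of those tested. Apoa1 and Apoe stand highest among the calls of the left panel in Nr5a2 KD, and the lowest point of the right panel is Dusp6 in Klf5 KD, where its libraries had 0, 0 and 1 counts and the fitted value depends on the prior count.

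Epiblast and trophectoderm genes were read as the alternative fates. Of 9 epiblast genes 8 were tested, with 1 called lower and 1 higher in Nr5a2 KD and likewise in dKD, set beside the same shares of all genes called (4.42% and 3.45%, then 3.85% and 3.38%). Tdgf1, a Nodal co-receptor, fell from 31.8 and 52.3 CPM in control to 3.15, 1.09 and 1.92 CPM in Nr5a2 KD (log2 -4.34, adjusted p = 3.2e-04, edgeR) and was at 5.41, 0.981, 0.486 and 1.81 CPM in dKD (log2 -4.27, adjusted p = 0.0027). Tdgf1 was called under all 17 alternatives run for Nr5a2 KD and all 18 run for dKD. Esrrb, an orphan nuclear receptor of naive pluripotency, was the gene called higher in Nr5a2 KD (log2 1.07, adjusted p = 0.0361), and its call was lost without control replicate 1 (0.182) or 2 (0.289) and without Nr5a2 KD replicate 1 (0.0695) or 2 (0.0859). Utf1, a chromatin factor of pluripotent cells, was the gene called higher in dKD (log2 1.46, adjusted p = 0.0356), and lost its call without control replicate 1 (0.102) or 2 (0.305) or dKD replicate 3 (0.0753) or 4 (0.0868), with the replicate block (0.0639) and with the mitochondrial covariate (0.0844). Nanog, which is mutually exclusive with Gata6 in the mature blastocyst, was at 12.3 CPM in control, 5.38 CPM in Nr5a2 KD (adjusted p = 0.0607, edgeR), 8.03 CPM in Klf5 KD and 4.03 CPM in dKD (adjusted p = 0.115). Of 9 trophectoderm genes 4 were tested in Nr5a2 KD, where the keratins Krt8 and Krt18 were called higher, and 5 in dKD, where none was called. Without control replicate 1 neither keratin passed (adjusted p of 0.0839 for Krt8 and 0.141 for Krt18), and Krt8 also failed without control replicate 2 (0.0857) and Krt18 without Nr5a2 KD replicate 1 (0.0537), with the replicate block (0.055) and with the mitochondrial covariate (0.103). The most abundant gene of that list, Tfap2c, a factor of the early trophectoderm, differed in the other direction, from 60.6 CPM in control to 30.6 in Nr5a2 KD (log2 -0.99, adjusted p = 0.0246, edgeR, just under 2-fold) and 39.8 in dKD (log2 -0.62, adjusted p = 0.0957).

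Xist, the RNA that coats the inactive X chromosome and has distal enhancers that GATA factors can activate, was at 196 and 216 CPM in control. It was at 91.0, 73.3 and 60.4 CPM in Nr5a2 KD, at 272, 172 and 66.6 CPM in Klf5 KD and at 72.5, 77.9, 25.3 and 70.9 CPM in dKD. Both Xist and its antisense gene Tsix were called lower in Nr5a2 KD and dKD, but the counting did not use strand, so their reads cannot be told apart. The Xist call in Nr5a2 KD (log2 -1.46, adjusted p = 0.0032, edgeR) was lost without control replicate 2 (0.0518), and that in dKD (log2 -1.75, adjusted p = 0.0119) without control replicate 1 (0.0779) or 2 (0.106). With ERCC library sizes Xist was at -0.72 (0.255) and -0.98 (0.0836), and with all 12 libraries in 1 fit the adjusted p in Nr5a2 KD was 0.0616. The Tsix calls were lost without the same control libraries, at adjusted p of 0.0966 in Nr5a2 KD and of 0.0668 and 0.104 in dKD. In Nr5a2 KD Tsix was also not called with ERCC library sizes (log2 -0.84, 0.194), all 12 libraries in 1 fit (0.086) or the mitochondrial covariate (0.0535). Expression of Xist also depends on the number of female embryos in a pool, and the part of embryo sex was not tested.

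The genes whose levels went most closely with each measured gene over the 12 libraries were found among 14830 genes by Pearson's r of log2 CPM. For Gata1 they were Fance (r = 0.970), a DNA repair gene, 4930458D05Rik (r = 0.960) and Iqgap3 (r = 0.958). Fance was at 16.7 CPM in control, 2.83 in Nr5a2 KD, 13.8 in Klf5 KD and 3.12 in dKD. For Pdgfra they were Gm37963 (r = 0.948), Gemin6 (r = 0.941) and Prss8 (r = 0.929), and Gemin6 was at 140.5 CPM in control, 205 in Nr5a2 KD, 105 in Klf5 KD and 154 in dKD. For Gata6 they were Gm45713 (r = 0.922), the ribosomal protein gene Rpl13a (r = 0.917) and Pcbp1 (r = 0.917), and for Gata4 they were Nus1 (r = 0.880), 4930555B11Rik (r = 0.872) and Nabp1 (r = 0.869). The libraries share their groups and their depth, and these values are a description.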

How the data were processed

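RNA-seq was made from 12 libraries of 10 pooled 8-cell embryos each, with ERCC spike-ins, a SMART-seq kit, without strand or molecular identifiers. Per the submitters' processing notes and the methods, the authors trimmed reads with Trim Galore 0.6.2, mapped them with STAR to GRCm38 with added ERCC and H2B-EGFP sequences, and counted them over exons with featureCounts 2.0.1. The deposited values are estimated counts (expected counts) per gene, not scaled, with a read that overlaps several genes split between them, so that 7.30 to 8.66% of values in a library were not whole. A read shared by overlapping genes therefore cannot be assigned to either. The file headers name a filtered alignment whose filter is not given in the sources used here.

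Symbols were taken from GENCODE M21 (GRCm38) for 55141 of 55401 genes. Values were rounded and tested with edgeR 4.0.16 (TMM, filterByExpr with a minimum count of 10 and minimum total of 15, glmQLFit and glmQLFTest, Benjamini-Hochberg adjustment over all genes tested) in R 4.3.3, on the libraries of the groups compared. The scripts were first tested on simulated data. Calls needed an adjusted p below 0.05 together with a change of 2-fold or more. Levels are TMM-scaled CPM, per kilobase of exon length where genes are compared. Exact permutation tests of single levels were two-sided (SciPy 1.17.1). The genes and the lists were chosen with earlier results of these data known. Named beside the 8 genes are Nr5a2 and Klf5, of each list the genes called against control and up to 3 others with the highest control level per length, and for each measured gene the 3 with the highest Pearson's r. Other genes (Sox2, Gatad1, Gata5, Gata2 and further relatives at or near 0, Fgf4, the FGF receptors, Ttr, Col4a1 and Sparc) were chosen after their values were seen. Promoter windows came from RefSeq (GRCm38.p6).

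The replicates were not duplicates of a library, with a chi-square of at least 8.33 per degree of freedom between any pair of a group. Among libraries with the same replicate number, those of Nr5a2 KD and dKD deviated together (r = 0.13, 0.222 and 0.254). Some of unlike number did so as well. Nr5a2 KD replicate 3 went with dKD replicate 4 (r = 0.263), and Klf5 KD replicate 1 with dKD replicate 4 (r = 0.196), all low in mitochondrial share. The main fits took no libraries as paired, and the replicate block was an alternative. In dKD against Nr5a2 KD no gene was called with or without the block. The labels do not say that libraries came from separate injection days, so p-values measure the spread between these libraries. DESeq2 1.42.0, other scalings and filters, a replicate block, the mitochondrial share as a covariate and each library left out were tried as alternatives. Other assays of the study were not analysed here. Items withheld from this account are not reported here.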

Additional observations from a re-analysis of the deposited data

Results flagged for a closer look

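In the 4 dKD libraries the values of 51 genes named in the lists or the group were examined for a library standing apart from the other 3, which chance alone gives in about 1 of 20 groups, and 4 did. Apoa1 was lowest in replicate 2 at 1.12 CPM, against 2.77 to 3.01 CPM in the others. Xist was lowest in replicate 3 at 25.3 CPM, against 70.9 to 77.9 CPM. Uty, a Y-linked gene, was lowest in replicate 1 at 5.29 CPM, against 10.2 to 11.2 CPM. Dppa3, a maternal and germ line gene, was highest in replicate 3 at 23590 CPM, against 19950 to 20560 CPM. None of the 8 genes of the group stood apart in this way.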

How the results depend on the processing

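With library sizes from ERCC counts, the genes of the group called lower in Nr5a2 KD went from 1 to 0, those called higher in dKD against Klf5 KD from 1 to 0, and those called higher in Klf5 KD against Nr5a2 KD from 1 to 0. The count called higher in Nr5a2 KD went from 0 to 1 (Pdgfra) with DESeq2, total counts, ERCC counts, no filter, a mean of at least 50 counts or the unadjusted p. The unadjusted p also gave 1 lower in Klf5 KD and 1 lower in dKD against Nr5a2 KD. In dKD against Klf5 KD the count called higher was 0 where a mean of at least 50 counts left Pdgfra untested, and 0 with the replicate block (Pdgfra log2 1.93, adjusted p = 0.122, edgeR). The block changed no other call of these genes.

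Some small differences turned sign. With ERCC counts, Gata4 was at 0.16 in Nr5a2 KD and 0.30 in dKD, Gata6 at 0.49 and 0.55, Gata1 in Klf5 KD at 0.52 and Gata6 in dKD against Nr5a2 KD at 0.061, or 0.017 with total counts. A fit that held the mitochondrial share as a covariate put Gata4 and Gata6 in Nr5a2 KD at 0.028 and 0.047.

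Leaving out 1 library at a time, the count called lower ranged from 0 to 1 in Nr5a2 KD and in dKD, and the count called higher from 0 to 1 in Nr5a2 KD and in dKD against Klf5 KD. The log2 differences that turned sign ranged from -0.015 to 0.55 for Pdgfra in dKD, from -0.21 to 0.34 for Gata4 and from -0.19 to 0.055 for Gata6 in dKD against Nr5a2 KD, and from -0.56 to 0.041 for Gata4 in Klf5 KD against Nr5a2 KD. Of the fold changes of these genes, 277 of those recomputed under other settings and 129 of those with a library left out kept their sign and their side of the threshold. A further 9 and 7 turned sign, and the rest gained or lost a call. The causes were not tested. At 3 counts a library resolves no level below 0.239 to 0.449 CPM, and with 2 control libraries a 2-fold lower Gata4 level lay inside the intervals against control, while a 2-fold higher level lay outside them.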
